A study of Mus musculus with 6 samples.

Results

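Transcripts of 10 transcription factors that set the identity of pancreatic islet cells, *Pdx1*, *Nkx6-1*, *Mafa*, *Mnx1*, *Nkx2-2*, *Neurod1*, *Isl1*, *Pax6*, *Rfx6*, and *Foxa2*, were followed in single cells of mouse islets. They were chosen by gene symbol as β cell or pan-endocrine factors, and each symbol matched 1 of the 32285 genes in the tables. The data are 6 libraries of islets from C57/BL6 mice of 12–14 weeks, 3 from WT and 3 from β14-3-3ζ–KO mice. They came from 3 mice of each genotype, although no label ties a library to 1 mouse. In KO mice, the Ins1-CreThor allele drives Cre from the insulin gene *Ins1*, and Cre removes exon 4 of *Ywhaz*, which encodes the scaffold protein 14-3-3ζ. WT mice were littermates that carried the same Cre allele without deletion of *Ywhaz*, so that all 6 libraries share the Cre. Islets rested overnight in culture, were dispersed, and were depleted of dead cells before capture, and the sex of the mice was not given in the sources used here.

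Islet endocrine cells are known to share a set of transcription factors and to differ in a smaller one. *Pdx1*, *Nkx6-1*, *Mnx1*, and *Mafa* are the β cell factors: PDX1 is a homeodomain protein that activates the insulin gene, NKX6-1 and MNX1 are homeodomain repressors that hold non-β programs down, and MAFA is a basic leucine zipper activator of insulin that marks mature β cells. *Nkx2-2*, *Neurod1*, *Isl1*, *Pax6*, *Rfx6*, and *Foxa2* act across the endocrine lineage. NKX2-2 is a homeodomain protein, NEUROD1 a basic helix-loop-helix activator, ISL1 a LIM homeodomain protein, PAX6 a paired box and homeodomain protein, RFX6 a winged-helix factor downstream of NEUROG3, and FOXA2 a forkhead pioneer factor.

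The 10 genes lie on 5 chromosomes, 4 of them on chromosome 2 and 3 on chromosome 5 (GENCODE vM21 annotation of GRCm38). *Pdx1* spans chr5:147269959-147275848, *Nkx6-1* chr5:101658139-101664996, and *Mnx1* chr5:29473034-29478470. *Mafa* spans chr15:75745490-75748228 and *Isl1* chr13:116298281-116309689. *Nkx2-2*, at chr2:147177546-147194243, and *Foxa2*, at chr2:148042877-148046969, are 848.633 kb apart. *Neurod1* spans chr2:79452521-79456751, *Pax6* chr2:105668900-105697364, and *Rfx6* chr10:51677756-51730432. Overlapping genes bear on some counts. *Pdx1* overlaps the antisense gene *Plut*, *Nkx2-2* overlaps the antisense genes *Nkx2-2os* and *6430503K07Rik*, and *Pax6* overlaps the antisense gene *Pax6os1*. *Neurod1* lies within the span of *Cerkl* on the same strand, so that its count is uncertain where the 2 genes share sequence.

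The promoters of 5 factors are shown because the levels of these genes differed most between islet cell types: *Pdx1*, *Nkx6-1*, and *Mnx1*, which were highest in β cells, and *Isl1* and *Rfx6*, which were highest in δ cells. Each is the stretch from 250 bases before to 50 bases after a RefSeq start (GRCm38.p6), written 5′ to 3′ on the strand of the gene, and capitals mark TAAT, the core letters of many homeodomain sites, read on either strand.
Pdx1, chr5:147269847-147270146, plus strand: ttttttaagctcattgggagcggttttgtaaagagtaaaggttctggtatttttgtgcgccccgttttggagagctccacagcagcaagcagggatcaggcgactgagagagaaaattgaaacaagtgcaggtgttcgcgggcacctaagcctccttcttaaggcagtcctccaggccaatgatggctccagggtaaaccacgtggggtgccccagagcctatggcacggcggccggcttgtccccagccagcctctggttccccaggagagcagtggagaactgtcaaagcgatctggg
Nkx6-1, chr5:101664662-101664961, minus strand: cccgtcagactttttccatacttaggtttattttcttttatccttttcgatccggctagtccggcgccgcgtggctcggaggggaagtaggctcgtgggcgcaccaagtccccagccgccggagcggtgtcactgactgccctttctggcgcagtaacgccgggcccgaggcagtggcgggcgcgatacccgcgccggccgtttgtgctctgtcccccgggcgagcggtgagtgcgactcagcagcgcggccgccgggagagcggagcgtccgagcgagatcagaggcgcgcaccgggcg
Mnx1, chr5:29478421-29478720, minus strand: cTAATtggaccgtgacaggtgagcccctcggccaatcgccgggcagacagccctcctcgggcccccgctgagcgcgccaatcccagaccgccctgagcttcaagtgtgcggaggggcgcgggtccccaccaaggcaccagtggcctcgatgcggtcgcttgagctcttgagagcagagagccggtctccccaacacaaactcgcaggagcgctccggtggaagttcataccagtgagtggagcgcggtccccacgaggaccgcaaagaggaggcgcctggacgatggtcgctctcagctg
Isl1, chr13:116309639-116309938, minus strand: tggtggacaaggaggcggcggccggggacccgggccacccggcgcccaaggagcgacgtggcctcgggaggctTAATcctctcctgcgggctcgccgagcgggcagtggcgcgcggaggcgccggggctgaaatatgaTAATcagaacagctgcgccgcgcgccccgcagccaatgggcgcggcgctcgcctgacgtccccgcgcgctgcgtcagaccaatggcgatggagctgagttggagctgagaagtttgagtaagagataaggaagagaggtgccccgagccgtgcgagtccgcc
Rfx6, chr10:51685268-51685567, plus strand: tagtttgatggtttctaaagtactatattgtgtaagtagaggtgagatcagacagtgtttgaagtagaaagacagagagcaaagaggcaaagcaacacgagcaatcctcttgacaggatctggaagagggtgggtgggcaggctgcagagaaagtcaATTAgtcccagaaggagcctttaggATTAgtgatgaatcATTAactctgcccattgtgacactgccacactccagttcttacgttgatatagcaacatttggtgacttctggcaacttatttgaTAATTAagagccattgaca
Of the 10 genes, 9 were found in the promoter table with 12 promoters, and *Mafa* was not. TAAT was present in 8 of the 12 promoters against 58.0% of 32851 mouse promoters of the same length. The *Rfx6* promoter held 5 matches, that of *Isl1* 2, that of *Mnx1* 1, and those of *Pdx1* and *Nkx6-1* 0. An E-box, CANNTG on either strand, was present in 8 of 12 against 72.3% of all promoters. A forkhead site, TGTTTAC on either strand, was present in 0 of 12 against 3.65%. The GC content of the 12 promoters had a median of 59.2%, with 52.7% over all promoters. These matches describe letters in a window and do not show binding.

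The deposited barcodes, 4400 to 10722 per library and 43445 in all, held between 74083947 and 98294915 UMIs per library. Filters on detected genes, mitochondrial UMIs, and doublet scores left 25438 barcodes, of which 81 occurred in more than 1 library. β, α, δ, and Ppy cells were defined by a single dominant hormone, as a share of the UMIs of the cell (20% for *Ins1* plus *Ins2*, 5% for *Gcg*, 2% for *Sst*, and 12% for *Ppy*), with at least 5000 UMIs. This gave 6754 β cells (790 to 1886 per library), 650 α cells (47 to 184), 594 δ cells (70 to 137), and 225 Ppy cells (16 to 48). Markers that the definition did not use followed the classes. The glucose transporter gene *Slc2a2* averaged 279.5 CPM in β cells against 14.2 to 19.5 CPM in the other classes, the α cell factor *Irx2* 159 CPM in α cells against 3.59 to 18.1 CPM, and the δ cell factor *Hhex* 298 CPM in δ cells against 2.41 to 3.89 CPM. Non-endocrine cells (endothelial, mesenchymal, macrophage, B, and T cells) were 6160 cells that carried at least 2 markers of 1 type and no dominant hormone. They served as the level of free RNA, which is a rough guide because it differed between these types. *Mafa* averaged 62.4 CPM in endothelial and 136 CPM in T cells, and B and T cells were 2694 and 1416 of the 6160.

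KO library 2 and WT library 1 stood apart. In KO library 2, 618 of 1886 β cells carried at least 2 B or T cell markers, against 0 to 28 in the other libraries. These barcodes had a median of 5811 UMIs, against 20150 in the remaining β cells of that library, and held 17.2% of the non-hormone UMIs of its β cells. The summed level of the 4 B cell markers in β cells ranged from 8.49 to 332 CPM across libraries, and that of the 4 T cell markers from 0.149 to 135 CPM, with no marker at 0 in all libraries. Values restricted to cells with at least 10000 UMIs, which leaves 29 such barcodes among 1041 β cells of KO library 2, are given beside each result that they alter. In WT library 1, the β cells with the most insulin had the highest share of insulin UMIs and few detected genes, which is given with the insulin terciles. *Ywhaz* was measured at 244, 288, and 272 CPM in WT β cells and at 34.5, 52.3, and 33.7 CPM in KO β cells. It was at 139 to 197 CPM in WT and 149 to 183 CPM in KO α cells, 223 to 264 and 225 to 253 CPM in δ cells, and 139 to 168 and 102 to 143 CPM in Ppy cells. UMIs from the 3′ end count transcripts and do not show the loss of exon 4 itself.

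Levels are counts per 1000000 UMIs outside *Ins1*, *Ins2*, *Gcg*, *Sst*, and *Ppy* (CPM), so that the content of these transcripts does not lower the level of other genes. Abundant transcripts left in the totals still do so in part. *Pyy* was at 140710 CPM in Ppy and 55437 CPM in δ cells, and *Iapp* at 62334 CPM in β cells. Because only 3′ ends were counted, levels were compared between cells and not between genes. Fewer cells of a state and less RNA per cell cannot be told apart in these sums. Since no label ties a library to 1 mouse, p-values measure the spread between these libraries.

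The 4 β cell factors were highest in β cells in each library, and *Mafa* and *Mnx1* overlapped the free RNA level in all other classes. *Pdx1* was also above the free RNA range in δ and Ppy cells, and *Nkx6-1* in Ppy cells. *Mafa* was measured at 633, 1219.8, and 1079 CPM in WT and 896, 1227, and 924 CPM in KO β cells. All 6 values were above every α, δ, and Ppy value, and WT library 1 was the lowest. In α, δ, and Ppy cells, *Mafa* averaged 64.7 ± 39.3, 64.6 ± 29.1, and 69.4 ± 55.1 CPM (SD, n = 6 libraries), against 82.1 ± 60.0 CPM in non-endocrine cells, where it ranged from 15.9 to 187 CPM. No α, δ, or Ppy value of *Mafa* exceeded that range, which comes from cells that should lack it. *Pdx1* was measured at 132, 179, and 196 CPM in WT and 162, 185, and 178 CPM in KO β cells. It was next in δ cells (116 ± 12.8 CPM), lower in Ppy cells (39.3 ± 7.59 CPM), and lowest in α cells (14.1 ± 2.41 CPM), and none of these 4 ranges overlapped its neighbour. Non-endocrine cells had 12.0 ± 6.74 CPM of *Pdx1*, a range of 3.83 to 22.4 CPM that held all 6 α cell values.

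*Nkx6-1* was measured at 281, 359.9, and 320.4 CPM in WT and 281, 303, and 304 CPM in KO β cells. Ppy cells followed at 115 ± 29.3 CPM and did not overlap β cells, whereas α cells (36.6 ± 5.68 CPM) and δ cells (32.1 ± 9.99 CPM) overlapped each other. Their means were above the 19.9 ± 8.37 CPM of non-endocrine cells, but both classes overlapped the non-endocrine range of 9.85 to 32.2 CPM. The lowest α value was 30.6 CPM and the lowest δ value 20.4 CPM. *Mnx1* was the sparsest factor, at 15.4, 24.4, and 22.1 CPM in WT and 18.8, 23.4, and 17.6 CPM in KO β cells. Only 13 *Mnx1* UMIs were counted in all α cells, 16 in δ cells, and 7 in Ppy cells, and their levels (1.58 ± 0.65, 1.83 ± 1.02, and 2.21 ± 1.95 CPM) overlapped the 0.182 to 3.61 CPM of non-endocrine cells. Over free RNA, the β cell level was 14.3-fold higher for *Pdx1*, 15.5-fold for *Nkx6-1*, 12.1-fold for *Mafa*, and 14.3-fold for *Mnx1*.

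**Figure D1:**
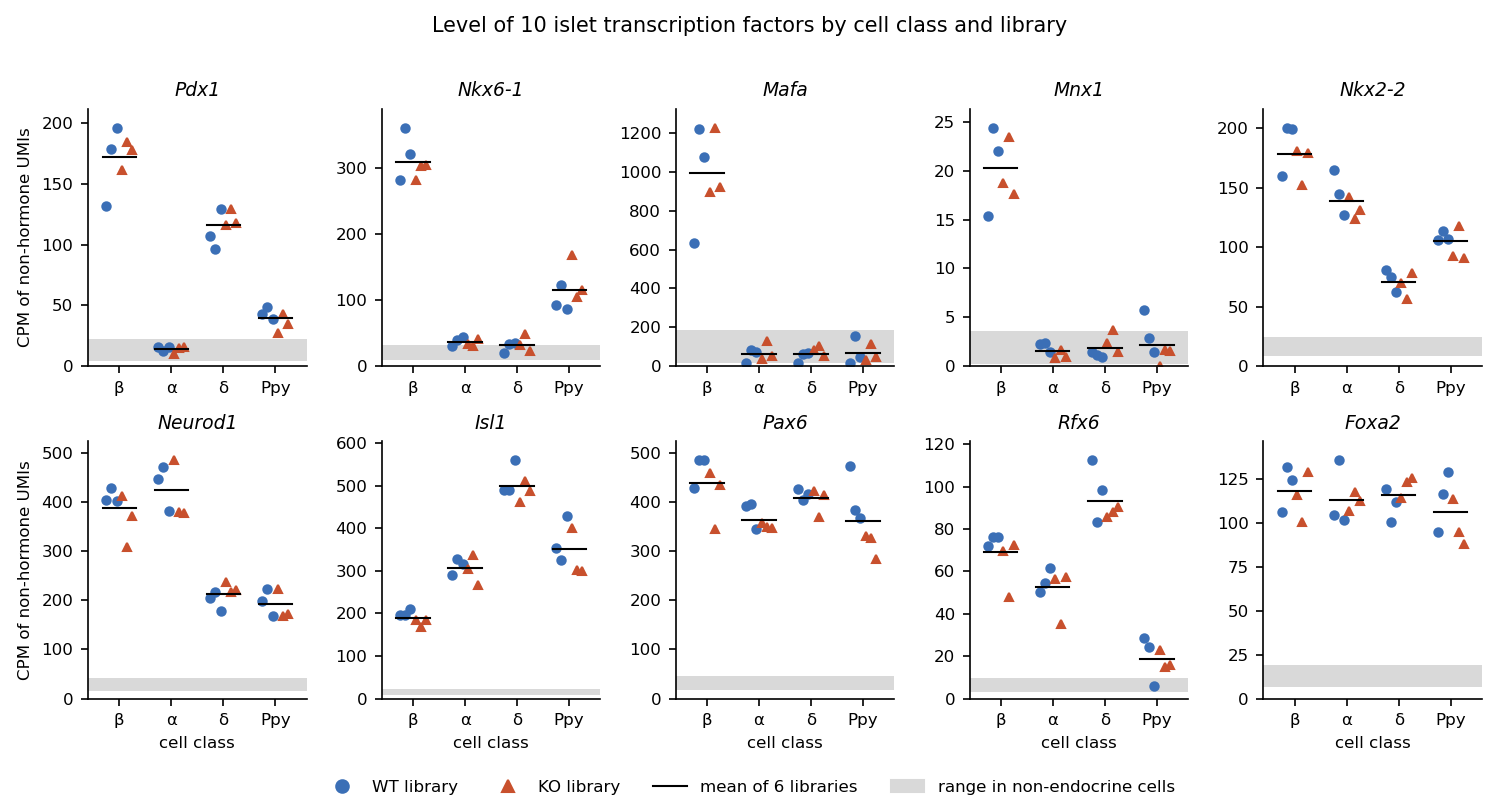
Level of each factor (y axis, CPM of non-hormone UMIs, linear and starting at 0) in β, α, δ, and Ppy cells (x axis), with 1 circle per WT library, 1 triangle per KO library, a line at the mean of 6 libraries, and a grey band for the range in non-endocrine cells. *Mafa* outside β cells and *Pdx1* in α cells sit within the band except where a Ppy or other value falls just below it, whereas *Pax6* and *Foxa2* are at like levels in all 4 classes.

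The 6 pan-endocrine factors were each well above free RNA in β, α, and δ cells, and they differed between the classes in order and size. *Isl1* was highest in δ cells, at 489.9, 489, and 559.7 CPM in WT and 463, 510.5, and 488 CPM in KO. It averaged 352 ± 52.8 CPM in Ppy cells and 307 ± 25.6 CPM in α cells, which overlapped, and it was lowest in β cells at 190.0 ± 14.6 CPM. The δ and β ranges overlapped neither of the other classes. *Rfx6* was also highest in δ cells (93.0 ± 10.9 CPM), followed by β cells (69.1 ± 10.6 CPM) and α cells (52.5 ± 9.33 CPM), which overlapped. In Ppy cells it was measured at 28.7, 24.2, and 5.80 CPM in WT and 23.1, 15.0, and 15.8 CPM in KO, below every value of the other classes, on 62 UMIs in all.

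*Neurod1* formed 2 levels. α cells (423 ± 49.9 CPM) and β cells (388 ± 43.3 CPM) overlapped, as did δ cells (212 ± 19.8 CPM) and Ppy cells (192 ± 26.3 CPM), and the 2 pairs did not overlap each other. *Nkx2-2* fell in the order β (179 ± 19.7 CPM), α (139 ± 15.1 CPM), Ppy (105 ± 11.0 CPM), and δ (70.5 ± 9.64 CPM), with overlap between β and α cells only. *Pax6* had a mean of 439.6 ± 52.1 CPM in β cells, 409 ± 20.6 CPM in δ cells, 364 ± 23.4 CPM in α cells, and 361 ± 65.4 CPM in Ppy cells, and each neighbour in this order overlapped. *Foxa2* was at 118 ± 12.8, 116 ± 9.10, 113 ± 12.4, and 106 ± 16 CPM in β, δ, α, and Ppy cells and overlapped in the same way.

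The question which factors separate β cells from each other endocrine class was tested with edgeR's quasi-likelihood test on the 24 sums of 6 libraries and 4 classes, with the library as a block and Benjamini-Hochberg adjustment over all genes. A gene was called at an adjusted p below 0.05 where its log2 fold change exceeded 1 in either direction. *Mnx1* entered this test through β cells alone, since it was below the filter on low values in each other class, so that its difference was fixed by the filter and it is left out of the counts. Against α cells, 3 of the other 9 factors were called higher in β cells and 0 lower, where 7.57% of 9894 genes were called higher and 6.25% lower. The log2 fold change was 4.02 ± 0.19 for *Mafa* (SE, adjusted p = 9.72e-18), 3.61 ± 0.10 for *Pdx1* (adjusted p = 3.62e-23), and 3.06 ± 0.12 for *Nkx6-1* (adjusted p = 5.78e-20). *Mnx1* had a log2 fold change of 3.74 ± 0.24. The remaining 6 stayed under the fold threshold, from −0.71 ± 0.07 for *Isl1* to 0.37 ± 0.10 for *Rfx6*.

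Against δ cells, 3 of the 9 factors were called higher in β cells and 1 lower, where 5.32% and 7.65% of genes were. *Mafa* (4.02 ± 0.19), *Nkx6-1* (3.33 ± 0.12), and *Nkx2-2* (1.32 ± 0.08) were higher, with adjusted p of at most 8.77e-15 by edgeR, and *Mnx1* had 3.48 ± 0.23. *Isl1* was lower by the edgeR test (−1.40 ± 0.07, adjusted p = 1.27e-17). *Pdx1* was not among the called genes here, with a log2 fold change of 0.56 ± 0.07. Against Ppy cells, 4 of the 9 factors were called higher and 1 lower, where 7.87% and 7.5% of genes were. *Mafa* (3.72 ± 0.21), *Pdx1* (1.96 ± 0.11), *Rfx6* (1.77 ± 0.17), and *Nkx6-1* (1.27 ± 0.11) were higher, and *Mnx1* had 3.17 ± 0.33. *Isl1* was lower (−1.06 ± 0.07, adjusted p = 1.97e-13 by edgeR) and is a call at the threshold, since scaling by library totals alone gave −0.88.

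**Figure D2:**
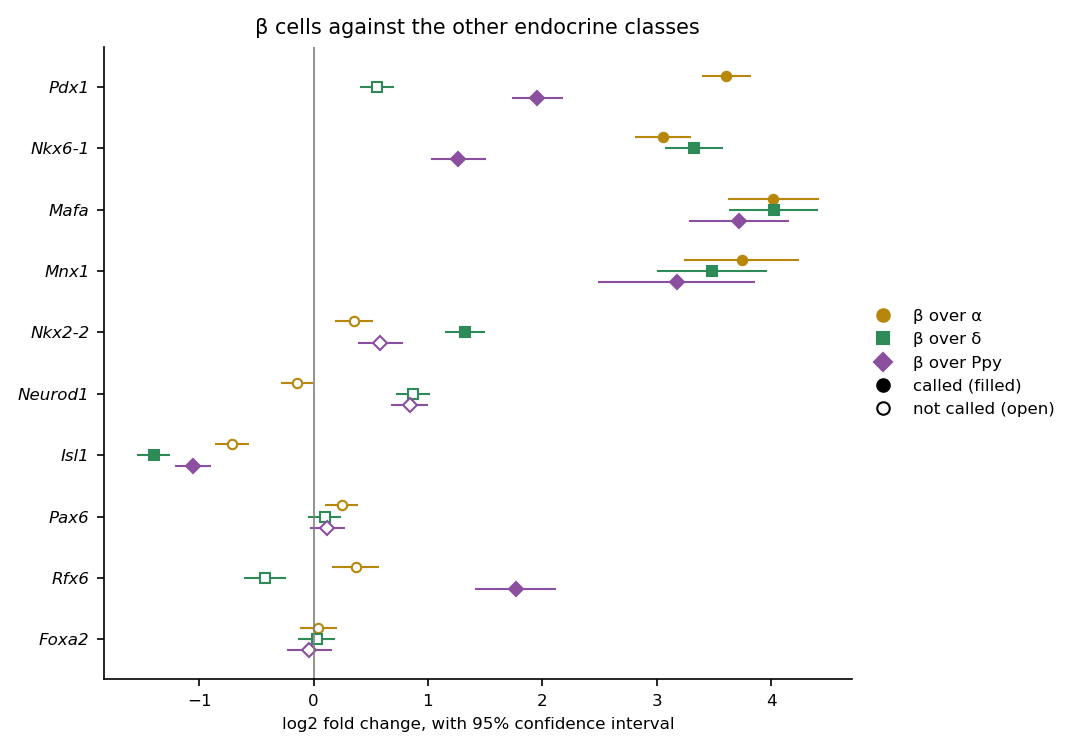
Log2 fold change of each factor in β cells over α, δ, and Ppy cells (x axis, points with 95% confidence intervals, n = 6 libraries), filled where called (*Mnx1* passed the filter through β cells alone). *Mafa*, *Mnx1*, and *Nkx6-1* are to the right of 1 in all 3 comparisons, *Isl1* is to the left of 0 in all 3, and *Pax6* and *Foxa2* lie between −0.04 and 0.25.

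Some UMIs of the other classes and of free RNA enter these contrasts. *Ins2* took 0.843 to 3.44% of UMIs in α cells and 0.884 to 3.47% in δ cells. *Pyy*, a marker of Ppy cells that was kept in the totals, took 140710 of every 1000000 UMIs counted for CPM in Ppy cells. The summed level of the 6 β cell markers outside the insulin genes was 60989 to 70116 CPM in β cells and 3944 to 6886 CPM in α cells. With cells of at least 10000 UMIs, the same numbers of factors were called against each class, and the largest shift of a called log2 fold change was from 3.06 to 3.16, for *Nkx6-1* against α cells.

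The share of cells with a UMI of a factor, with each cell thinned to 2000 non-hormone UMIs, gave the same ordering of β cells over free RNA for all 10 factors. *Mafa* was detected in 65.3% ± 8.32 of β cells against 17.4% ± 11.3 of non-endocrine cells (SD, n = 6), *Pax6* in 54.0% ± 7.37 against 7.40% ± 2.42, and *Nkx6-1* in 42.3% ± 4.59 against 4.81% ± 2.01. *Pdx1* was detected in 26.7% ± 3.53 of β cells and 2.78% ± 1.61 of non-endocrine cells, and *Mnx1* in 3.71% ± 0.61 and 0.37% ± 0.25. For each factor the lowest β cell share was above the highest share in non-endocrine cells. In α cells, *Pdx1* was detected in 2.65% ± 0.39 and *Mnx1* in 0.25% ± 0.12, both at the share of cells that should lack them, and *Mafa* in 11.6% ± 6.07, below it. Without thinning, the shares in β cells ran from 26.8% for *Mnx1* to 94.1% for *Mafa*, and in non-endocrine cells, whose median depth was lower (4856.5 to 11006.5 against 8086 to 22124.5 non-hormone UMIs per library), from 1.24% to 43.2%. Thinning left out 3 of 6754 β cells and 155 of 6160 non-endocrine cells.

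**Figure D3:**
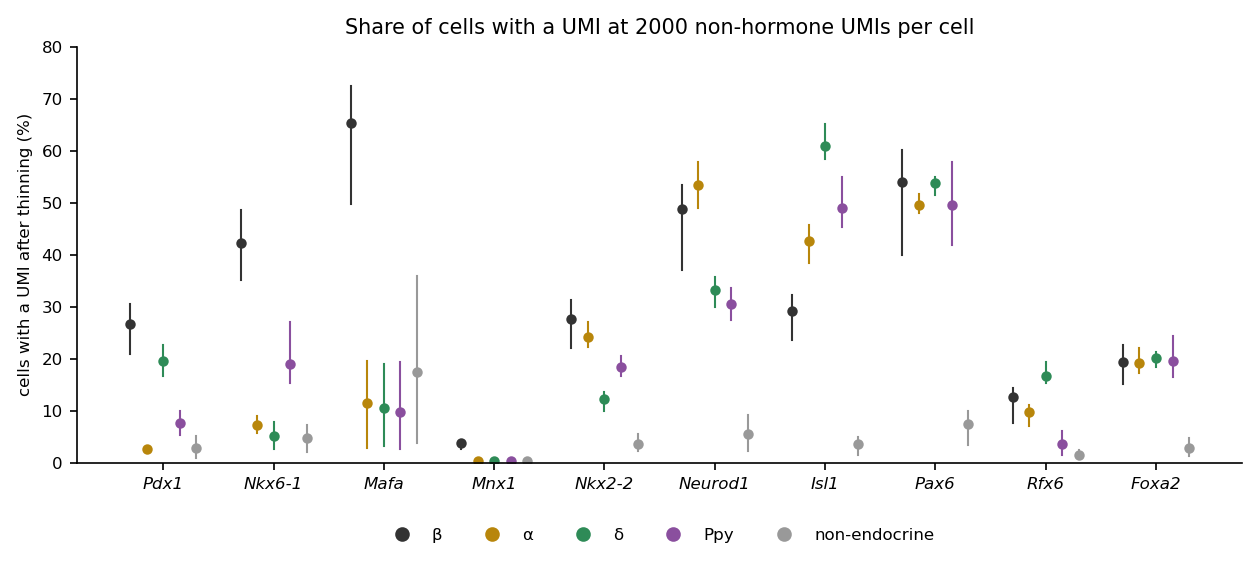
Share of cells with at least 1 UMI of each factor after thinning to 2000 non-hormone UMIs per cell (y axis, percent), by class, with the mean of 6 libraries as a point and the range as a line. β cells are above non-endocrine cells for each factor, whereas *Mafa* in α, δ, and Ppy cells overlaps them.

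The genes whose level was most like that of a factor over the 24 endocrine sums were found by Pearson's r of log2(CPM + 1) among 7086 genes with a mean of at least 20 CPM. The sums share libraries and classes, so these values describe likeness and carry no test. *Mafa* was closest to *Prss53* (r = 0.975) and *Ucn3* (r = 0.974), the latter encoding urocortin 3, a peptide of mature β cells. *Pdx1* was closest to *Epb41l3* (r = 0.968) and *Jakmip1* (r = 0.967), *Nkx6-1* to *Dmpk* and *Mia3* (r = 0.918 for both), and *Mnx1* to *Pofut2* (r = 0.955) and *Gpr45* (r = 0.938). *Isl1* was closest to *Stxbp5l* (r = 0.953) and *Tshz2* (r = 0.950), *Rfx6* to *Pnmal1* (r = 0.959) and *Cdk14* (r = 0.958), *Neurod1* to *Ddb1* (r = 0.947) and *Klc1* (r = 0.946), and *Nkx2-2* to *Ddc* (r = 0.934) and *Itgav* (r = 0.931). *Pax6* (*AU040320*, r = 0.884, and *Cpeb4*, r = 0.854) and *Foxa2* (*Fam45a*, r = 0.737, and *Dnajb14*, r = 0.719) had lower values. Among the factors themselves, *Mafa* and *Mnx1* had r = 0.854, and *Nkx6-1* and *Isl1* had r = −0.780.

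Partners and targets of the 10 factors were taken from 3 lists. Of 24 partner or neighbouring transcription factors, 21 were tested between classes. Against α cells, 3 were called higher in β cells (*Mlxipl*, 2.99, *Insm1*, 1.67, and *Glis3*, 1.14 on the log2 scale) and 3 lower. Of all 9894 genes, 7.57% were called higher and 6.25% lower. The median was 0.03 over the list and −0.002 over all genes. Genes that passed the filter on low values through 1 class alone were not taken out of the counts of this list. MLXIPL is a glucose-responsive activator, and INSM1 is a zinc finger factor of endocrine cells. Against δ cells, 0 were called higher and 3 lower, where 5.32% and 7.65% of genes were. *Meis2* (−1.40) was among those called lower. So was *Neurog3* (−5.80), but it passed the filter on low values through δ cells alone, so that its difference was fixed by the filter. *Neurog3*, the factor that starts endocrine differentiation, was counted at 1040 UMIs in δ cells (112.8 CPM), 235 in β cells (2.03 CPM), 13 in α cells, and 0 in Ppy cells. Against Ppy cells, 3 were called higher and 2 lower, where 7.87% and 7.5% of genes were. *Mlxipl* (2.07) and *Insm1* (1.66) were among those called higher. *Neurog3* was called as well, but it was below the filter in both classes. Ppy cells were at 0 for it in all 6 libraries, so that no fold is given.

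Of 16 known target genes, 15 were in the tables and 13 were tested, *Ins1* and *Ins2* being left out as hormone genes. Called higher in β cells were 8 against α cells, 8 against δ cells, and 10 against Ppy cells, with medians of 3.84, 2.37, and 2.79 on the log2 scale. Of all 9894 genes, 7.57%, 5.32%, and 7.87% were called higher in these comparisons. *Slc2a2* had a log2 fold change of 4.30, 3.93, and 3.90 in the 3 comparisons, *Trpm5*, a cation channel, 4.26, 3.57, and 3.99, *G6pc2*, an islet glucose-6-phosphatase, 3.90, 4.01, and 3.90, and *Ucn3* 4.11, 3.86, and 3.67. *Trpm5* had few UMIs outside β cells (5.84 to 9.92 CPM) and was below the filter on low values in α and Ppy cells. Its differences against α and Ppy cells were fixed by the filter, which 1 class was enough to pass. Its difference against δ cells follows in part from the filter. All 3 counts above include *Trpm5*. *Slc30a8*, the zinc transporter of insulin granules, was the 1 target called lower in β cells than in α cells (−1.04). Of 5 antisense or neighbouring noncoding genes, 2 were in the tables and 1 was tested, *Pax6os1*. It was higher in β than in α cells (2.20), where α cells were below the filter with 21 UMIs in all, and it was not called in the other comparisons. *Pax6* itself had a log2 fold change of 0.25 ± 0.07 between β and α cells.

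The second question was whether loss of 14-3-3ζ altered the factors in β cells. The study left out KO β cells in which *Ywhaz* was not fully deleted. Here, KO β cells with any *Ywhaz* UMI were left out of this comparison. The KO libraries then held 662, 1194, and 592 β cells. WT cells were not filtered, although 88, 57, and 74 WT β cells also had no *Ywhaz* UMI. The KO cells kept were shallower than those left out. In KO library 1, the 662 of 1170 β cells kept held 11342543 of 22879724 non-hormone UMIs. The part of this depth in the comparison was not tested. None of the 10 factors was called between KO and WT (edgeR, adjusted p below 0.05 with a log2 fold change of more than 0.1 in either direction), where 0.0106% of 9437 genes was called, 1 gene, *Ywhaz*. That call was fixed by the choice of cells, which leaves KO cells with 0 *Ywhaz* UMIs. Of all genes tested, 358 had an unadjusted p under 0.05, and DESeq2 called 0 factors as well. *Mafa* was measured at 633, 1219.8, and 1079 CPM in WT and 902, 1269, and 919.7 CPM in KO, which overlap over most of their range. *Pdx1* was at 132, 179, and 196 CPM in WT and 165, 189.9, and 180.2 CPM in KO, again with overlap. *Nkx6-1* was at 281, 359.9, and 320.4 CPM in WT and 286, 311, and 313 CPM in KO.

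The log2 fold changes of the β cell factors were 0.13 (95% confidence interval −0.19 to 0.44) for *Pdx1*, −0.03 (−0.27 to 0.20) for *Nkx6-1*, 0.14 (−0.43 to 0.70) for *Mafa*, and 0.03 (−0.44 to 0.50) for *Mnx1*. The intervals of *Mafa* and *Mnx1* are the widest of the 10 and leave room for changes of either sign. Those of the pan-endocrine factors were narrower: −0.09 (−0.29 to 0.11) for *Nkx2-2*, −0.13 (−0.32 to 0.06) for *Neurod1*, −0.10 (−0.26 to 0.06) for *Isl1*, −0.12 (−0.33 to 0.09) for *Pax6*, −0.18 (−0.44 to 0.08) for *Rfx6*, and −0.03 (−0.24 to 0.17) for *Foxa2*. All adjusted p were at least 0.92. These fits did not pair the libraries. With WT and KO libraries of the same number paired as a block, the intervals were −0.17 to 0.48 for *Mafa* and −0.24 to 0.28 for *Mnx1*, and no factor was called.

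*Isl1* was the 1 factor whose WT and KO values did not overlap in β cells, at 196, 196, and 211 CPM in WT and 189.6, 171, and 186 CPM in KO. Non-overlap of this kind was found for 9.81% of the 9437 genes, so that 1 factor of 10 is at the background. *Rfx6* was at 71.8, 76.0, and 76.4 CPM in WT and 68.3, 49.5, and 75.5 CPM in KO, where each KO value is below the WT value of the same number, KO library 2 is the lowest, and the groups overlap. *Pax6* was at 429.5, 485, and 485 CPM in WT and 460.0, 354, and 440.2 CPM in KO, with the same library lowest. In cells of at least 10000 UMIs, the log2 fold changes were −0.15 (−0.38 to 0.07) for *Rfx6*, −0.09 (−0.25 to 0.08) for *Pax6*, and −0.08 (−0.22 to 0.07) for *Isl1*.

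**Figure D4:**
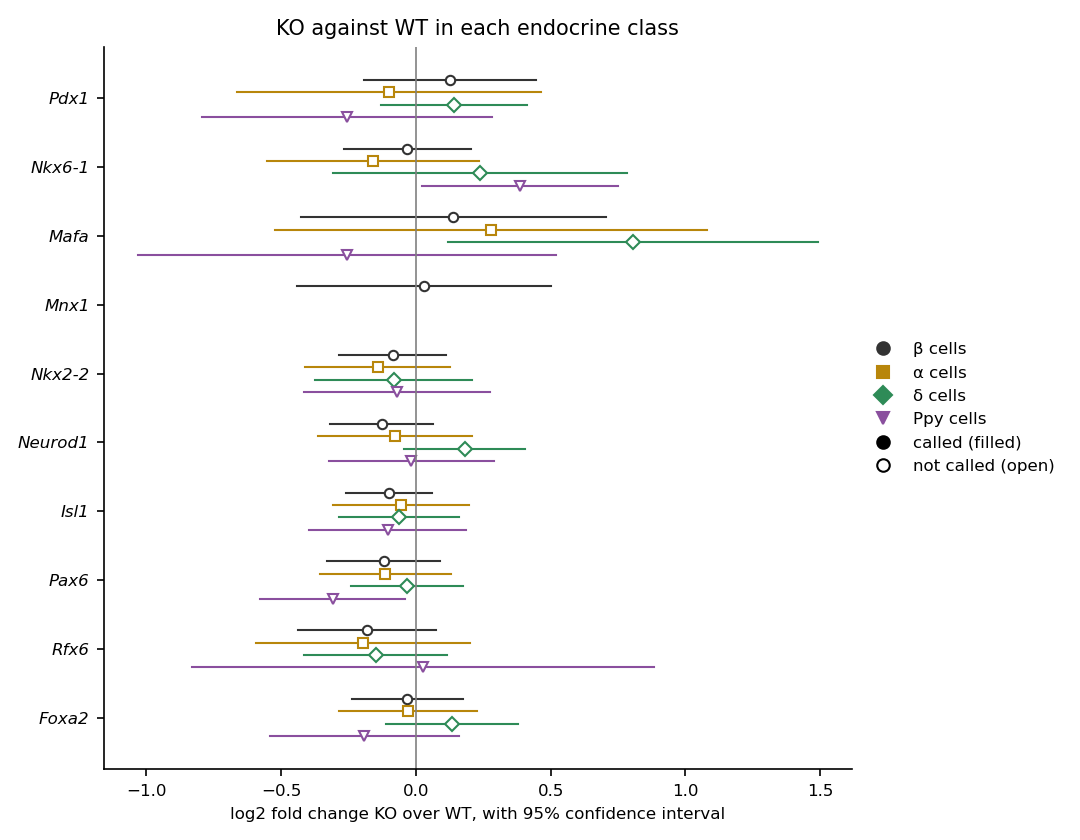
Log2 fold change of each factor in KO over WT (x axis, points with 95% confidence intervals, n = 3 against 3 libraries) in β, α, δ, and Ppy cells, all open because none was called. *Mnx1* was tested in β cells only, and the intervals of *Mafa* reach from −0.43 to 0.70 in β cells.

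In α, δ, and Ppy cells, 9 factors passed the filter on low values and *Mnx1* did not. None was called between KO and WT, where 0% of 8854 genes in α cells, 0% of 9394 in δ cells, and 0.011% of 9074 in Ppy cells were, the 1 gene in Ppy cells being *Gm10076*. Unadjusted p under 0.05 numbered 359, 286, and 426 genes. WT and KO values did not overlap for 0 factors in α cells (9.23% of genes), for *Neurod1* in δ cells (8.14%), and for *Pax6* in Ppy cells (9.93%). *Neurod1* in δ cells was at 205, 216, and 177 CPM in WT and 236, 216, and 221 CPM in KO, where the highest WT and the lowest KO value round to the same CPM, with a log2 fold change of 0.18 (−0.04 to 0.41). *Pax6* in Ppy cells was at 474, 385, and 367 CPM in WT and 331, 328, and 284 CPM in KO (−0.31, −0.58 to −0.04, edgeR adjusted p = 0.975). *Mafa* in δ cells had the largest difference, 0.80 (0.12 to 1.49, edgeR adjusted p = 1.00), at 17.0, 61.8, and 66.0 CPM in WT and 85.2, 103, and 54.7 CPM in KO, values that lie within the range of non-endocrine cells.

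The difference between the KO effect in β cells and that in another class was tested as an interaction over the 24 sums, with all KO β cells kept, those with a *Ywhaz* UMI included. No factor was called against α, δ, or Ppy cells, where 0.0101%, 0.0303%, and 0.0303% of 9894 genes were called. These were *Ywhaz* in each case and, against δ and Ppy cells, the immunoglobulin genes *Ighm* and *Igkc*. Outside *Mnx1*, the widest gap was −0.83 ± 0.36 (SE) for *Mafa* against δ cells, with an adjusted p of 1.00 by edgeR. *Mnx1*, with few UMIs outside β cells, had −0.97 ± 0.63 against δ cells and 1.22 ± 0.97 against Ppy cells. By the share of thinned cells, 40 comparisons of KO with WT (10 factors in 4 classes) were made with an exact two-sided permutation test, for which 3 against 3 libraries allows no p below 0.10. Of the 40, 4 reached it, which is the share of 0.10 expected without any effect, and 0 of these were in β cells.

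The lists gave 0 calls as well. Of the partner factors, 19, 19, 18, and 19 were tested in β, α, δ, and Ppy cells, with median log2 fold changes of −0.10, −0.11, 0.02, and −0.10. Of the targets, 13 were tested in β cells and 12 in each other class, with medians of 0.02, −0.02, 0.05, and 0.001, against −0.003 to 0.004 over all genes. The median of the 10 factors in β cells was −0.06.

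The third question was how the factors vary among β cells of 1 library with their insulin content. β cells of each library were ranked by the percent of UMIs from *Ins1* and *Ins2* and split into 3 terciles, which were summed and compared in edgeR with the library as a block (n = 6 libraries, all KO cells kept). *Mafa*, *Nkx6-1*, and *Pdx1* were called higher in the upper than in the lower tercile, and 0 factors lower, where 12.2% of 9412 genes were called higher and 10.1% lower. The log2 fold change was 0.51 ± 0.11 for *Mafa* (SE, adjusted p = 0.00551), 0.40 ± 0.10 for *Nkx6-1* (adjusted p = 0.0128), and 0.26 ± 0.08 for *Pdx1* (adjusted p = 0.0279). *Rfx6* had −0.29 ± 0.10 with an adjusted p of 0.0546 by edgeR, and *Isl1* 0.18 ± 0.07 with 0.0849. *Mnx1*, *Nkx2-2*, *Neurod1*, *Pax6*, and *Foxa2* ranged from −0.15 to 0.04.

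KO library 2 and WT library 1 stand apart here. In KO library 2, 466 of the 629 cells of the lower tercile carried B or T cell markers, with a median of 6031 UMIs and 1803 genes. In WT library 1, the upper tercile had a median of 71.6% insulin and 3188 genes, against 48.8 to 52.2% and 3938.5 to 5387 genes in the other libraries. The summed level of the 4 α cell markers ranged from 291 to 474 CPM in the lower and 530 to 2911 CPM in the upper tercile, and the part of other cell types in these results was not tested. Depth and mitochondrial share moved with the terciles as well. Outside KO library 2, the median was 24588 to 33952 UMIs per cell in the lower and 31502 to 52882 in the upper tercile, and the median mitochondrial share was 5.85 to 6.50% and 2.24 to 3.64%. In KO library 2, the upper tercile had a median of 23923.5 UMIs, and the mitochondrial share was 2.11% in the lower and 3.56% in the upper tercile. Their part in these results was not tested. With cells of at least 10000 UMIs, 3 factors were called higher (*Mafa*, 0.39 ± 0.08, *Nkx6-1*, 0.28 ± 0.07, and *Pdx1*, 0.16 ± 0.06) and 2 lower (*Rfx6*, −0.37 ± 0.07, edgeR adjusted p = 0.000454, and *Foxa2*, −0.21 ± 0.06, adjusted p = 0.0170). Genes called higher were then 22.1% and those called lower 19% of 9658.

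*Rfx6* was lower in the upper tercile in 5 of 6 libraries with all cells and in 6 of 6 with cells of at least 10000 UMIs. In the latter it went from 92.6, 84.7, and 87.2 CPM to 36.8, 67.6, and 65.1 CPM in WT and from 83.5, 63.3, and 83.5 CPM to 61.7, 47.0, and 59.1 CPM in KO. *Mafa* in the same cells went from 625, 1007, and 909.5 CPM to 437, 1338, and 1061 CPM in WT and from 779, 1284, and 670.1 CPM to 973, 1372, and 1053 CPM in KO, higher in each library but WT library 1. *Nkx6-1* went from 284, 329, and 300.2 CPM to 291, 381, and 339 CPM in WT and from 285, 343, and 281 CPM to 280.2, 333, and 315 CPM in KO, lower in KO libraries 1 and 2. *Pdx1* moved in no common direction in CPM, from 133, 179, and 187 CPM to 103, 174, and 188 CPM in WT and from 165, 213, and 155 CPM to 165, 189, and 195 CPM in KO.

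The calls in this comparison depend on the scaling between terciles. The fit above scales each sum by TMM, which places the median of all genes at −0.017, and scaling by library totals alone places it at −0.141, or at −0.197 against −0.011 with at least 10000 UMIs. With totals alone, 0 factors were called with all cells. With totals alone and at least 10000 UMIs, 6 were called, all lower in the upper tercile (*Mnx1*, −0.37, *Nkx2-2*, −0.42, *Neurod1*, −0.26, *Pax6*, −0.30, *Rfx6*, −0.55, and *Foxa2*, −0.39), and *Pdx1* was at −0.03. In all 4 fits, *Mafa* and *Nkx6-1* had values above 0, and *Mnx1*, *Nkx2-2*, *Rfx6*, and *Foxa2* values below 0. *Pdx1*, *Neurod1*, *Isl1*, and *Pax6* had values on both sides of 0.

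**Figure D5:**
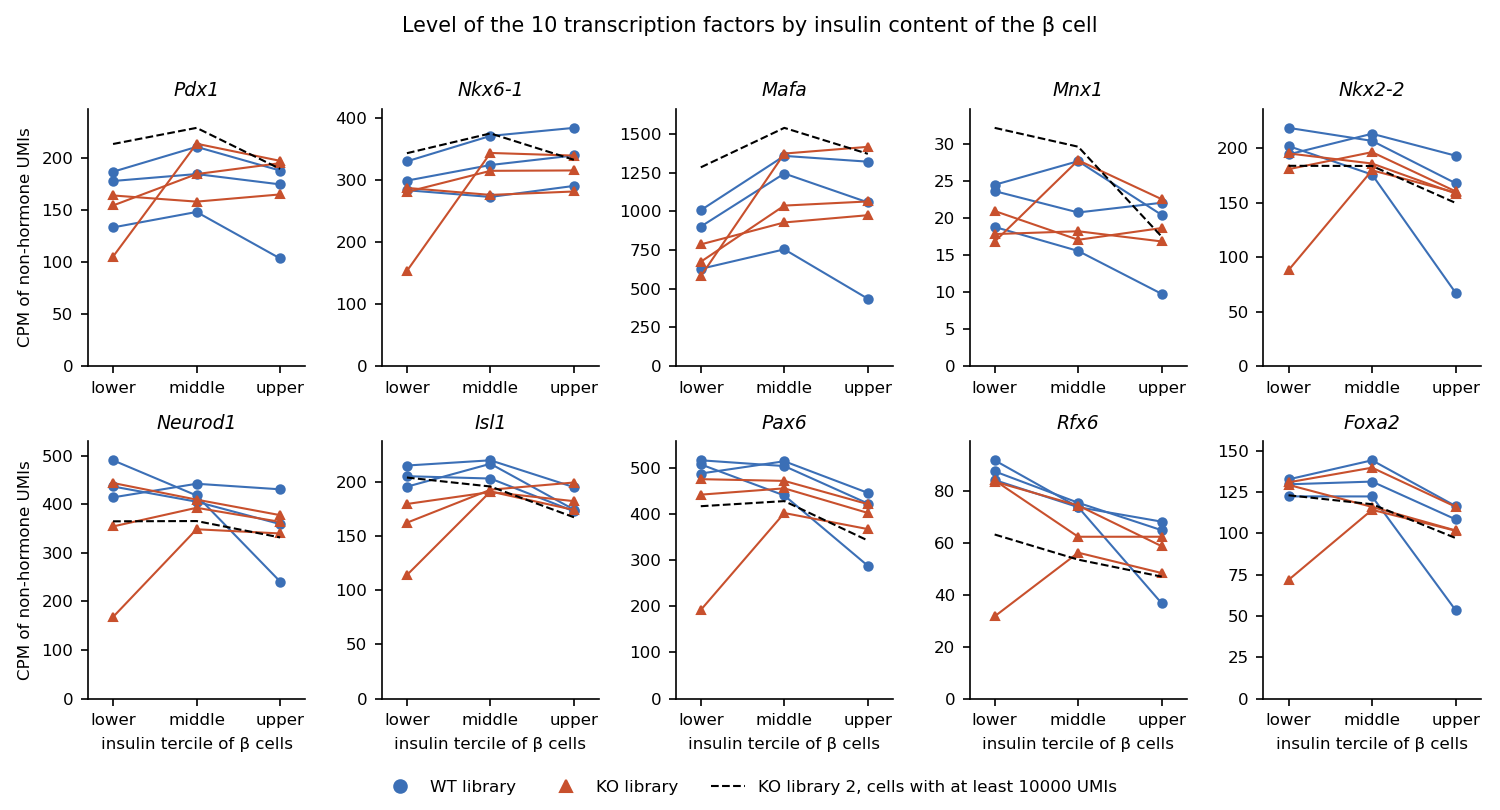
Level of each factor (y axis, CPM of non-hormone UMIs, linear and starting at 0) in the lower, middle, and upper insulin tercile of the β cells of each library (x axis), with 1 line per library and a dashed line for KO library 2 restricted to cells with at least 10000 UMIs. *Rfx6* declines in each library except KO library 2 with all cells, where its lower tercile is at 31.7 CPM, and among the 6 lines with all cells, WT library 1 ends lowest for each factor but *Nkx6-1*.

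Of the target genes, 7 of 13 were called higher in the upper tercile and 1 lower, where 12.2% and 10.1% of all genes were. Among those higher were *Trpm5* (0.91), *Pcsk1* (0.85), the prohormone convertase that processes proinsulin, *Slc2a2* (0.83), and *Slc30a8* (0.60 on the log2 scale). The median was 0.54 over the list and −0.02 over all genes. Of 19 partner factors tested, 0 were higher and 6 lower. With cells of at least 10000 UMIs, the counts were 8 higher and 3 lower among targets and 0 higher and 11 lower among partners. Of all genes, 22.1% were then called higher and 19% lower.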

How the data were processed

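Single-cell RNA-Seq of islets was deposited by the authors as UMI counts per gene and barcode, whole numbers without normalization, made with the Chromium 3′ kit (v3.1) and Cell Ranger 6.0.2. The submitters' processing notes name mm10 and Seurat. Whether counting used strand was not given in the sources used here.

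Everything computed from the deposited counts used R 4.3.3 with DESeq2 1.42.0, limma 3.58.1, and edgeR 4.0.16 for the fits, and Python 3.11.15 with matplotlib 3.10.9, scanpy 1.11.5, anndata 0.12.19, scipy 1.17.1, pandas 2.3.3, and numpy 2.4.6 for the rest. Barcodes with at least 500 genes and at most 10% mitochondrial UMIs were kept. The automatic Scrublet threshold marked at most 4 barcodes per library, so the top-scored 0.8% per 1000 barcodes were left out. A cell took the class of the hormone over its cut where every other hormone was under 0.5 of its own cut. The cuts were set from histograms of hormone shares. Of the β cells, 288 lie near a cut. Non-endocrine cells needed at least 1000 UMIs.

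Counts summed by library and class went into edgeR's quasi-likelihood test (TMM, Benjamini-Hochberg over all genes). A gene was tested where over 15% of the cells of at least 1 group in the fit (genotype, class, or tercile) held a UMI of it. Ywhaz, the 10 factors, up to 5 called list genes per comparison, and the 2 genes most like each factor were named. Other genes behind counts of 5 or fewer were named after their values were seen. Some genes of the lists are not reported here. WT and KO libraries of the same number deviated together (r = 0.448, 0.467, and 0.362 over genes in β cells). No label says that the numbers are pairs. The main fits did not pair them, and fits with the number as a block were run beside these. The tests were also run on simulated data. There, most small changes between KO and WT were not called, and false calls were more frequent than the adjusted p allows. Intervals and shares cover counting error or the spread of libraries only.

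The members and lists were chosen with earlier results of these data known.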

Additional observations from a re-analysis of the deposited data

Results flagged for a closer look

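*Isl1* changed between the insulin terciles of β cells in opposite directions in the 2 genotypes. It was lower in the upper than in the lower tercile in 3 of 3 WT libraries (by −32.3, −21.1, and −19.9 CPM) and higher in 3 of 3 KO libraries (by 37.0, 60.0, and 2.59 CPM), which puts the mean KO change 57.7 CPM above the mean WT change. The difference was not tested. In cells of at least 10000 UMIs, KO library 2 went from 204 to 167 CPM, and the genotypes no longer differed in this way.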

How the results depend on the processing

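Between KO and WT, 0 factors were called in β, α, and Ppy cells under every alternative run. In δ cells without a filter on low counts, 1 was (*Mafa*, 0.79). With the replicate block, which pairs WT and KO libraries of the same number, 0 factors were called in each class, as without it, and *Rfx6* in β cells was at −0.19 ± 0.10 (SE). The block changed no other call of a factor. Between classes, with *Mnx1* counted, the count against α cells was 4 throughout, that against δ cells 5 or, in WT libraries only, 6 (*Neurod1*, 1.04), and that against Ppy cells 6 or, without the filter, 5 (*Isl1*, −0.93). With library totals only, *Isl1* (−0.88) left and *Neurod1* (1.02) entered the calls against Ppy cells.

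The insulin terciles depended most on the processing. Against 3 factors called, 1 was with cells thinned to 2000 UMIs, 5 with at least 10000 UMIs, 5 without barcodes carrying B or T cell markers, 0 with library totals only, 6 with both at least 10000 UMIs and totals only, 1 in WT libraries only, and 0 in KO libraries only. Leaving out 1 library gave 2 to 5, the 5 without KO library 2. With at least 10000 UMIs and totals only, *Pdx1* (−0.0301), *Neurod1* (−0.26), and *Pax6* (−0.30) changed sign, as did *Isl1* (−0.08), which was called in neither fit. The alternatives with totals only, or without marked barcodes, were chosen after seeing the data.

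Of 1703 single-factor values under the alternatives, 1563 kept their side of the threshold and their sign, 18 were no longer past the threshold, 15 passed it, and 104, called in neither fit, changed sign. Ppy cells numbered only 16 to 48 per library.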

Other observations

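Cells with 1 hormone over its cut and another at 0.5 of its own cut or more, 1003 in all and 69 to 309 per library, were kept out of the classes. Among their factor levels were *Mafa* at 498 ± 144 CPM (SD, n = 6 libraries), *Pdx1* at 117 ± 11.7 CPM, *Nkx6-1* at 172 ± 22.7 CPM, and *Isl1* at 324 ± 17.8 CPM. They had 17291 to 35115 non-hormone UMIs per cell by library median, against 8086 to 22124.5 in β cells, and their *Ywhaz* level was 209 to 245 CPM in WT and 109 to 123 CPM in KO libraries.

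The 283 cells with ductal markers and no dominant hormone carried more of the factors than the other non-endocrine cells did, with *Pdx1* at 48.4 ± 12.7 CPM, *Pax6* at 171 ± 71.7 CPM, and *Foxa2* at 71.2 ± 12.1 CPM. They were left out of the free RNA level for this reason, a choice made after their values were seen. *Pax6* in the 5 other non-endocrine types averaged 23.3 to 45.4 CPM.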
